A study of Mus musculus with 9 samples.

Results

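The genes described here encode the collagens and nidogens of basement membranes: the 6 chains of collagen IV (Col4a1, Col4a2, Col4a3, Col4a4, Col4a5 and Col4a6), the collagens Col15a1 and Col18a1 that sit at the outer face of basement membranes, and the nidogens Nid1 and Nid2. They were chosen by gene symbol, not by their values, and are 10 of the 53342 genes in the table. All 10 were among the 19314 genes that passed the filter on low counts and were tested. RNA was sequenced from tissue labelled total bladder of wild-type female C57BL/6N mice in 3 groups of 3 libraries. The H2O2/saline group received an infusion of 1.5% H2O2 into the bladder on day 0 at 8 weeks of age and intraperitoneal saline on days 0 and 4. The H2O2/SB431542 group received the same infusion and, on the same days, SB431542 at 1.2 mM, an inhibitor of the kinase of the type I TGF-β receptors and of the activin and nodal receptors. Tissue was taken on day 10. The sources differ on the control group: the sample labels call it untreated, whereas the study calls it sham and its methods describe saline put into the bladders of control mice. The series calls the 3 libraries of a group biological replicates but does not say that each is a separate mouse, so p-values measure the spread between these samples.

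A basement membrane is the thin sheet of matrix under an epithelium and around vessels, muscle cells and nerves. In the bladder it underlies the urothelium. Collagen IV forms its crosslinked network from trimers of α chains, of which the trimer of α1 and α2 is found in nearly all basement membranes, while the chains made by Col4a3 to Col4a6 have a narrower distribution. Nidogens bridge the collagen IV and laminin networks. Collagen XVIII, the product of Col18a1, carries the fragment endostatin at its end, and collagen XV is its close relative, found around capillaries and muscle.

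The collagen IV genes lie in head-to-head pairs, and the promoters of Col4a1 with Col4a2 and of Col4a5 with Col4a6 are shown. The part of these promoters in the levels of the genes was not tested. RefSeq promoter windows on GRCm38.p6, each from 250 bases before to 50 after a start of transcription, were found for 8 of the 10 members, all but Col4a3 and Nid2. The window of Col4a1 is chr8:11312777-11313076 on the minus strand and that of Col4a2 is chr8:11312555-11312854 on the plus strand. They share 78 bases (capitals), within which the annotated transcripts overlap over their opening 22 bases, and each is written 5′ to 3′ on its own strand.
Col4a1: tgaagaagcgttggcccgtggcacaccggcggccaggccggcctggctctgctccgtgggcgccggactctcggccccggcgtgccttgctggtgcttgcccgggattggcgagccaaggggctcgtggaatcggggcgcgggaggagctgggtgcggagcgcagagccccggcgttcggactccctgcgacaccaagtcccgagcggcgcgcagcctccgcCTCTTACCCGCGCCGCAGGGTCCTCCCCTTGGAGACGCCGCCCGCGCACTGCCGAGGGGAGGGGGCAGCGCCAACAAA
Col4a2: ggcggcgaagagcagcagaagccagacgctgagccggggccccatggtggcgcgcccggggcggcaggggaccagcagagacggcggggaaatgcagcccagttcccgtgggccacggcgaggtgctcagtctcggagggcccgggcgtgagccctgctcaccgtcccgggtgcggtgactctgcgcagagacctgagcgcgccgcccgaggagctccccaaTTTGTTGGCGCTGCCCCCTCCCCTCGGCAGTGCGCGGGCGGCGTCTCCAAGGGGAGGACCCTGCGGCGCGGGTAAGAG
For the other pair, the window of Col4a5 is chrX:141475169-141475468 on the plus strand and that of Col4a6 is chrX:141474027-141474326 on the minus strand. Their starts lie 1343 bases apart and the windows share no base. The capitals mark the GC box GGGCGG, which reads CCGCCC where it lies on the other strand.
Col4a5: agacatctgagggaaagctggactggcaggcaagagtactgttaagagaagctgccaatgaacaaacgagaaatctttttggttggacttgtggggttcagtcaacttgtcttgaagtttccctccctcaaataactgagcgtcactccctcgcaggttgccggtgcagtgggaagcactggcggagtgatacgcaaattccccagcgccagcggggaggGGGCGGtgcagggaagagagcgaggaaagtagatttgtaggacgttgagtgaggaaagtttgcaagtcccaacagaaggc
Col4a6: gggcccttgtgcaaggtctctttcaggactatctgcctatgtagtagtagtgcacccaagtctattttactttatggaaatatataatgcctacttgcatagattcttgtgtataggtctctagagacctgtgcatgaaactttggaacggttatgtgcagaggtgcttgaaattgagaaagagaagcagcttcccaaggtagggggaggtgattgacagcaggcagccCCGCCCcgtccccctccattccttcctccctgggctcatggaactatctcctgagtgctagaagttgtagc
The windows of Col4a1 and Col4a2 had GC contents of 74.0% and 73.7%, against a median of 52.7% over 32851 windows of the same length, and 95.2% of all windows had less. Those of Col4a5 (52.7%) and Col4a6 (48.3%) were near the median. GGGCGG on either strand was found in 6 of the 9 windows of members (Col18a1 has 2) and in 35.7% of all windows, and 1 copy lay in the stretch that Col4a1 and Col4a2 share. CCAAT was in 5 of the 9 and in 37.4% of all, TATAAA in 0 of the 9 and in 13.6% of all, and CAGACA, letters of the Smad-binding CAGA box, in 1 of the 9 (a window of Col18a1) and in 21.0% of all, each searched on both strands.

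Library totals ran from 37329213 to 41055328 counts. The replicate 1 library of each group stood apart from the others: 25838 to 27530 genes had a count there against 21451 to 24078 in the other 6 libraries. Of the 19314 genes tested, 5.84% had all 3 replicate 1 libraries below all the others and 7.45% had them above. Among the members only Nid1 did, at 21.2 to 34.7 CPM (counts per 1000000, on library sizes scaled by TMM) in the replicate 1 libraries against 45.8 to 84.5 CPM elsewhere. Markers of urothelium, smooth muscle, fibroblasts, endothelium and pericytes were all detected in every library. In bulk tissue, fewer cells of a type and less RNA per cell cannot be told apart.

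Compared per kilobase of exon, collagen IV α1 and α2 and collagen XVIII were the most abundant transcripts of the set. Over the 9 libraries the mean was 118 CPM per kilobase for Col4a1, 108 for Col4a2 and 72.3 for Col18a1. Col15a1 followed at 18.0 CPM per kilobase, Col4a5 at 9.60, Nid1 at 8.16, Col4a6 at 6.98 and Nid2 at 3.20. Col4a4 and Col4a3, the chains that pair with α5 in the kidney glomerulus, were scarce, at 0.302 and 0.0506 CPM per kilobase. Some neighbours in this order were close: Col4a1 exceeded Col4a2 in 7 of 9 libraries, Col4a2 exceeded Col18a1 in 8, Col4a5 exceeded Nid1 in 7 and Nid1 exceeded Col4a6 in 6. Each of the other steps held in 9 of 9 libraries. Col4a1 and Col4a2 together made up 89.7% to 94.9% of collagen IV transcripts per kilobase in the 9 libraries, with group means of 91.9% ± 1.92 in control, 93.6% ± 0.992 in H2O2/saline and 92.7% ± 1.94 in H2O2/SB431542 (SD, n = 3).

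**Figure D1:**
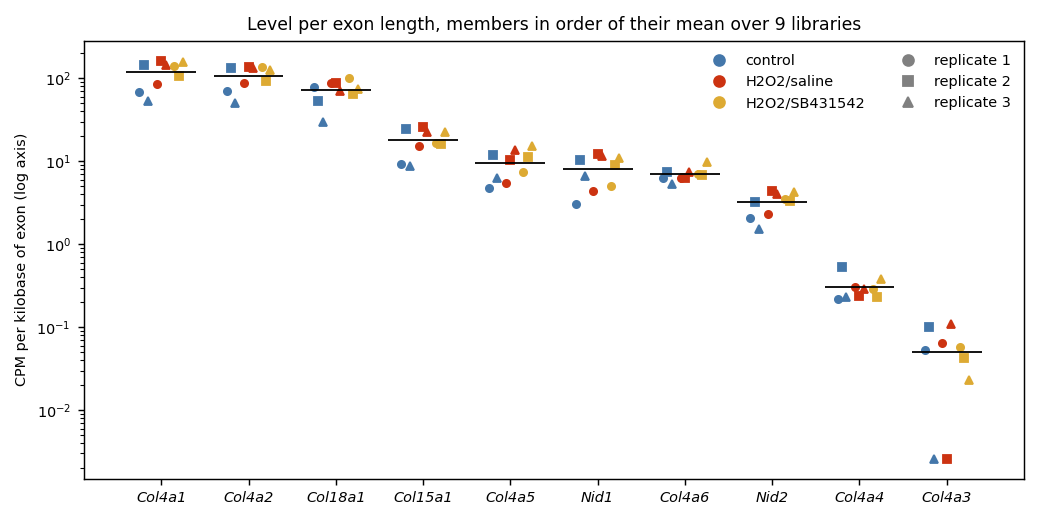
Level of each member in CPM per kilobase of exon (log axis), members ordered by their mean over 9 libraries (black line); colour gives the group and marker shape the replicate number. Col4a1, Col4a2 and Col18a1 lie highest, with means of 118, 108 and 72.3 CPM per kilobase, and Col4a4 and Col4a3 lie lowest, at 0.302 and 0.0506.

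The injury comparison asked whether these genes differed 10 days after H2O2. The main chains of collagen IV, both collagens of the outer face and both nidogens had higher means in the H2O2/saline bladders than in control, by fitted folds of 1.41 to 1.59, but none of these differences passed the test. The control libraries differed among themselves by 2.10-fold to 3.41-fold for the same genes. By the quasi-likelihood test of edgeR, adjusted after Benjamini-Hochberg over all tested genes, 0 of 10 members passed an adjusted p of 0.05, where 0.0518% of all tested genes did. At an unadjusted p under 0.05, 0 of 10 were higher (9.88% of all genes) and 0 were lower (7.96%). DESeq2 and limma-voom, both also run, called 0 members, while DESeq2 called 7.3% of all genes and limma-voom 0.0362%. The fitted log2 fold change was positive for 9 of 10 members, against 48.6% of all genes, with a median of 0.49 against -0.02 over all genes. No member had its 3 H2O2/saline libraries all above the 3 control libraries, as 9.7% of genes did, and none had them all below (8.96%).

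Col4a1, the α1 chain, was at 515, 1086 and 400.2 CPM in control libraries 1, 2 and 3. In H2O2/saline it was at 648, 1223 and 1070 CPM. The control 2 library thus stood among the H2O2 libraries and above 2 of them, and the other controls lay below all 3. The means were 667 ± 367 and 980 ± 298 CPM (SD, n = 3), and the fitted log2 difference was 0.56 (SE 0.35; 95% interval -0.22 to 1.33; adjusted p = 0.459 in edgeR). Col4a2, the α2 chain, was at 471, 887 and 331 CPM in control. In H2O2/saline it was at 590, 911 and 878 CPM. These 6 libraries stood in the same order as for Col4a1, and the log2 difference was 0.50 (SE 0.33; adjusted p = 0.476 in edgeR).

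Col15a1 was at 59.4, 156 and 55.9 CPM in control. In H2O2/saline it was at 96.0, 167 and 144 CPM. Here again control 2 was the high control, and the log2 difference of 0.58 (SE 0.36) did not pass in edgeR (adjusted p = 0.446). Col18a1, which makes collagen XVIII, was at 561, 373 and 208 CPM in control and 623, 610 and 492 CPM in H2O2/saline. Unlike the other abundant members, it was highest in control 1 and not in control 2, so that control 1 was above H2O2/saline 3. Its log2 difference was 0.60 (SE 0.31; 95% interval -0.08 to 1.27; adjusted p = 0.347 in edgeR).

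Nid2 was at 10.6, 16.7 and 7.94 CPM in control. In H2O2/saline it was at 12.0, 22.9 and 21.0 CPM. It had the largest log2 difference of the set, 0.67 (SE 0.31; 95% interval -0.0034 to 1.33; adjusted p = 0.283 in edgeR), with the H2O2/saline 1 library lying below control 2. Nid1 was at 21.2, 72.3 and 45.8 CPM in control and at 30.5, 84.5 and 80.8 CPM in H2O2/saline. Each H2O2/saline library exceeded the control library of its own number, and the groups overlapped through H2O2/saline 1, which lay below control 2 and control 3. Its log2 difference was 0.49 with an SE of 0.46 (adjusted p = 0.643 in edgeR). Where Nid2 and the gene Rtraf meet on opposite strands, 437 bases, or 8.45% of the exon bases of Nid2, belong to both. Rtraf held 2025 to 4060 counts in these libraries and the strand used in counting was not given, so the levels of Nid2 are uncertain. The shared bases are 22.7% of the exon bases of Rtraf, whose counts are several times those of Nid2 (308 to 963 per library), so the uncertainty may reach much of the Nid2 count. Over the 9 libraries the log2 counts of Rtraf and Nid2 correlated at r = 0.084.

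The remaining chains of collagen IV showed smaller differences. Col4a5 was at 32.1, 79.4 and 42.0 CPM in control and 37.0, 70.2 and 92.3 CPM in H2O2/saline, with a log2 difference of 0.38 (SE 0.39). Col4a6, its partner on the X chromosome, was at 49.8, 58.5 and 42.8 CPM in control and 50.4, 49.6 and 60.1 CPM in H2O2/saline. It was the steadiest member, varying 1.85-fold over all 9 libraries, and its log2 difference was 0.08 (SE 0.20; 95% interval -0.36 to 0.52). Col4a4 was at 2.35, 5.62 and 2.45 CPM in control and 3.26, 2.53 and 3.07 CPM in H2O2/saline, and was the only member with a lower fitted level (log2 difference -0.23, SE 0.40). Col4a3 held from 1.06 to 43.5 counts in a library: 20, 38 and 1.06 in control, 22, 1.33 and 43.5 in H2O2/saline, and 23.7, 17 and 10.5 in H2O2/SB431542. At that depth its log2 difference of 0.17 has an SE of 1.19, so that no difference was detectable, and 563 of its exon bases also belong to C430014B12Rik on the other strand.

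**Figure D2:**
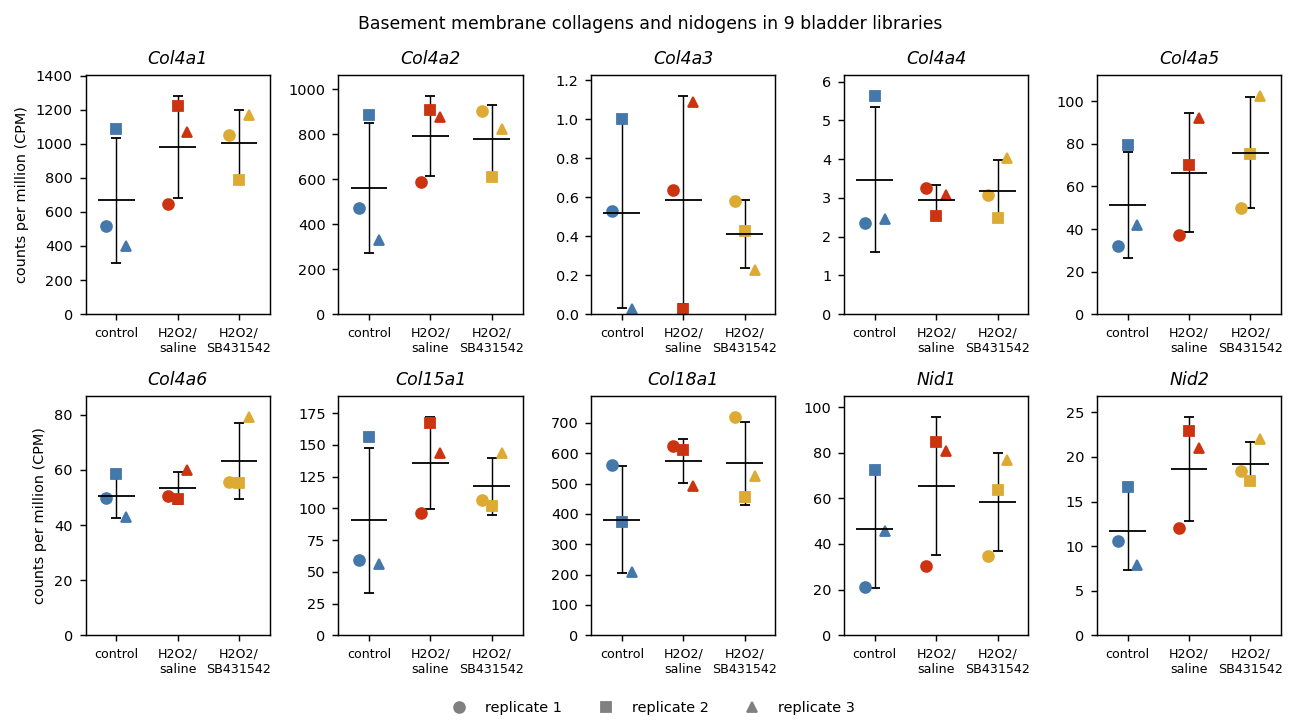
CPM of each member in the 9 libraries; colours are the 3 groups, marker shape gives the replicate number, the horizontal line is the group mean and the bar is ± 1 SD (n = 3). For Col4a1 the control 2 library, at 1086 CPM, lies among the H2O2 libraries (648 to 1223 CPM), and for Nid1 the 3 replicate 1 libraries lie lowest, at 21.2 to 34.7 CPM.

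The libraries with the same replicate number deviated together in this comparison, most clearly those of replicate 1. The test was therefore also made with the number as a block, although whether a number marks a pair is not known. The count of genes called then went from 10 to 925 (4.79% of all tested), and 0 of 10 members were among them. In that fit 4 members had an unadjusted p under 0.05 with higher levels (11.8% of all genes did): Col15a1, Col18a1, Nid1 and Nid2. For Nid1 the SE of the log2 difference went from 0.46 to 0.19 while the difference itself stayed near 0.51 (adjusted p = 0.146 in edgeR with the block). With the replicate 1 libraries left out of every group, a choice made after seeing the data, 1 member was called: Col18a1, whose 2 remaining control libraries (373 and 208 CPM) lay below the 2 H2O2/saline ones (610 and 492 CPM), with a log2 difference of 0.89 (SE 0.24; adjusted p = 0.0323 in edgeR). In that fit 13.1% of all genes were called. Single control libraries also decided the size of the median log2 fold change of the members, which was 0.27 without control 1 and 0.96 without control 2.

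Treatment with SB431542 was compared with saline among the H2O2-infused mice. No member passed the test and the means of both groups were close: 0 of 10 members were called by edgeR, DESeq2 or limma-voom, where edgeR and limma-voom each called 0% of all genes and DESeq2 0.202%. At an unadjusted p under 0.05, 0 of 10 were higher (3.86% of all genes) and 0 were lower (4.98%). Of the members 5 of 10 had a positive log2 fold change, against 51.7% of genes, and their median was 0.0058 against 0.02 over all genes. For no member did the 3 libraries of one group lie all above or all below those of the other, where 8.49% of genes had the SB431542 libraries all higher and 7.37% all lower.

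In H2O2/SB431542, Col4a1 was at 1050, 789 and 1171 CPM and Col4a2 at 904, 613 and 825 CPM. The log2 difference from H2O2/saline was 0.03 for Col4a1 (95% interval -0.74 to 0.81) and -0.02 for Col4a2 (-0.73 to 0.69). These intervals span folds from 0.599 to 1.75 and from 0.601 to 1.61, so differences within them were not detectable. Col15a1 was at 107, 102 and 143 CPM with a log2 difference of -0.21 (SE 0.36), and Col18a1 was at 718, 455 and 526 CPM with one of -0.02 (SE 0.31). The 3 H2O2/SB431542 libraries of Col15a1 lay within the range of H2O2/saline, while those of Col18a1 spread beyond it at either end. Nid1 was at 34.7, 63.5 and 76.9 CPM (log2 difference -0.16, SE 0.46) and Nid2 at 18.4, 17.3 and 22.0 CPM (0.05, SE 0.30). Col4a5 was at 50.1, 75.2 and 102 CPM (0.19, SE 0.39) and Col4a6 at 55.5, 55.3 and 79.1 CPM (0.25, SE 0.20). Col4a6 had the largest positive difference of the set, with overlapping groups, and Col4a4 was at 3.07, 2.47 and 4.02 CPM (0.11, SE 0.40). For Col4a3 the log2 difference was -0.50 with an SE of 1.19.

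Against control, which both H2O2 groups share, the H2O2/SB431542 bladders had positive log2 fold changes for 8 of 10 members (50.2% of all genes), with a median of 0.42 against 0.0018 over all genes. By edgeR 0 of 10 members were called (0.0155% of all genes), and DESeq2 (1.02% of genes) and limma-voom (0.0155%) called 0 as well. Nid2 was the only member whose groups did not overlap, at 17.3 to 22.0 CPM against 7.94 to 16.7 in control, as 7.98% of genes did in that direction, while 0 members lay all below (6.49%). It was also the only member with a higher level at an unadjusted p under 0.05 in edgeR (4.36% of genes), and 0 members were lower (3.24%). Its log2 difference was 0.71 (SE 0.31; 95% interval 0.04 to 1.38), and the adjusted p was 0.620. The other log2 differences were 0.59 for Col4a1 (SE 0.36), 0.47 for Col4a2 (SE 0.33), 0.57 for Col4a5 (SE 0.39), 0.57 for Col18a1 (SE 0.31), 0.37 for Col15a1 (SE 0.36), 0.33 for Nid1 (SE 0.46), 0.33 for Col4a6 (SE 0.20), -0.12 for Col4a4 (SE 0.40) and -0.34 for Col4a3 (SE 1.19). The groups overlapped for each of these members. With the replicate number as a block, edgeR again called 0 of 10 (0.181% of all genes), and 3 of 10 (Col4a5, Col18a1 and Nid2) were higher at an unadjusted p under 0.05 (6.17%).

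**Figure D3:**
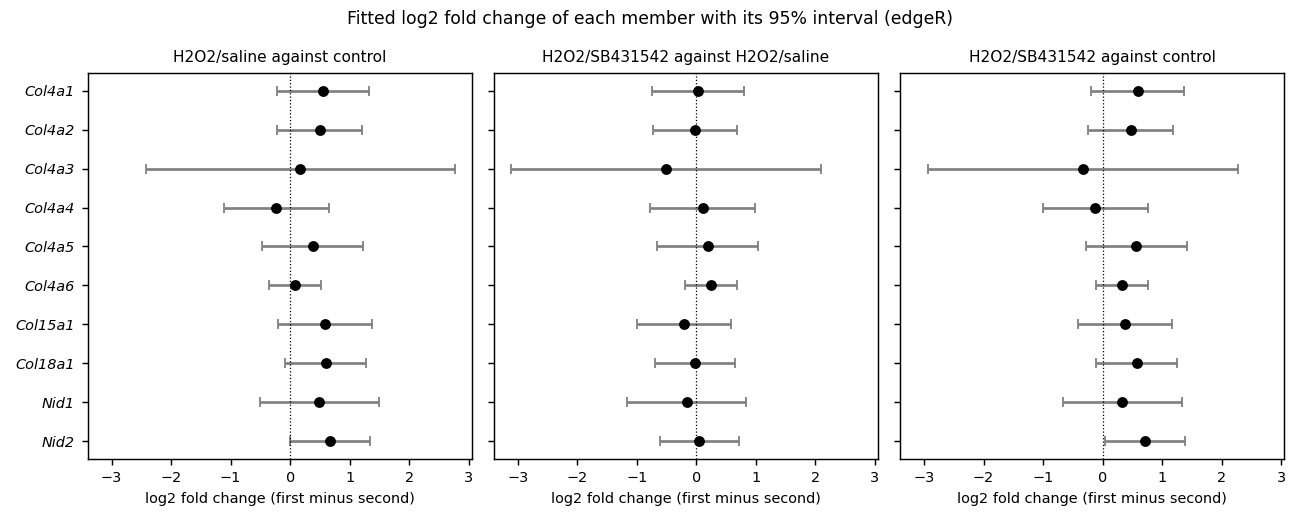
Fitted log2 fold change (horizontal axis) of each member in the 3 comparisons, named above each panel as first against second group, with points for the edgeR estimate (n = 3 a group) and bars for its 95% interval. All bars cross 0 except that of Nid2 in H2O2/SB431542 against control (0.04 to 1.38), and the bar of Col4a3 is the widest.

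The members did not all vary together from library to library. Col4a1 ranged 3.06-fold over the 9 libraries, yet the ratio of Col4a1 to Col4a2 counts stayed between 1.09 and 1.42, and its log2 SD of 0.13 was the smallest of the 45 pairs of members. Next came Col4a1 with Nid2 (SD of the log2 ratio 0.15) and Col4a1 with Col15a1 (0.17). The α1 and α2 chains, Col15a1 and Nid2 thus kept nearly constant proportions, also with the group means taken out (r = 0.973, 0.964 and 0.963 of Col4a1 with Col4a2, Nid2 and Col15a1 over 9 libraries). The count ratio of Col4a1 to Col4a2 was 1.18 ± 0.0716 in control, 1.22 ± 0.123 in H2O2/saline and 1.29 ± 0.129 in H2O2/SB431542 (SD, n = 3), which lay within the spread. Col4a5 ran with Nid1 (SD of the log2 ratio 0.28), and less closely with Col4a6, the gene at its head (0.45).

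**Figure D4:**
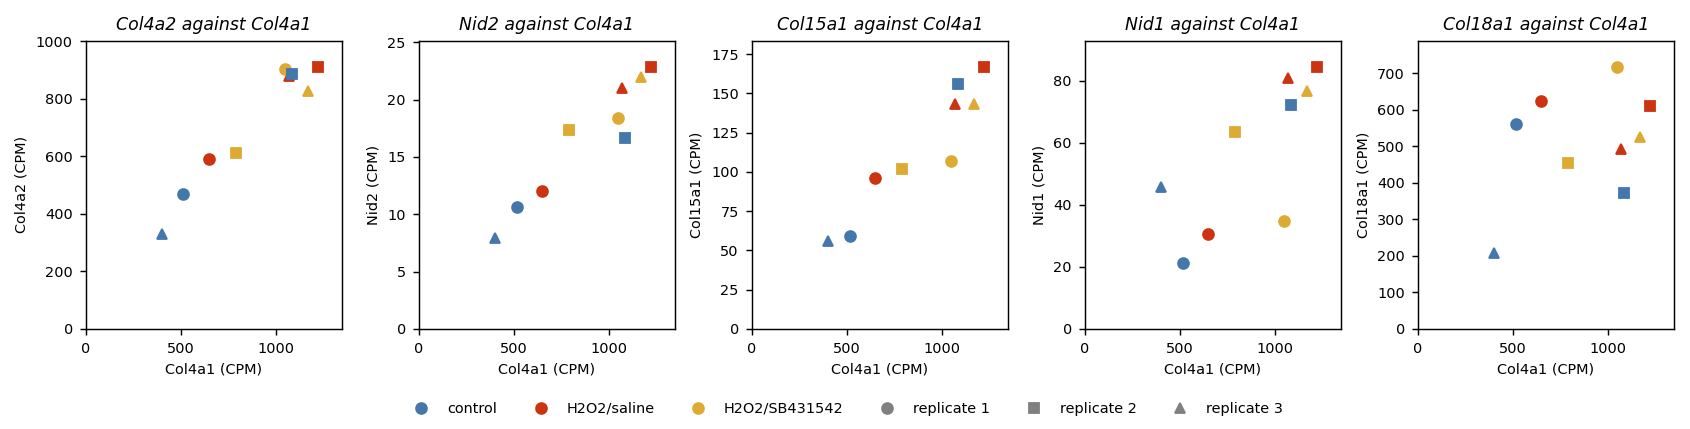
CPM of 5 members (vertical axes) against Col4a1 (horizontal axis) in the 9 libraries, with groups by colour and replicate numbers by marker shape. Col4a2, Nid2 and Col15a1 lie near a line through the origin, while the replicate 1 libraries fall low for Nid1 (21.2 to 34.7 CPM) and high for Col18a1 (561 to 718 CPM).

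Col18a1 and Nid1 differed most in their order over libraries if Col4a3 is left aside, with an SD of the log2 ratio of 0.97. Col18a1 was at 561 to 718 CPM in the replicate 1 libraries and 208 to 610 CPM in the others, whereas Nid1 was low in the former. Consequently the ratio of Nid1 to Nid2 counts ran from 1.89 to 2.53 in the replicate 1 libraries and from 3.49 to 5.78 in the others, ranges that did not meet, while the 3 groups overlapped. Col4a5 showed the same tendency as Nid1, at 32.1 to 50.1 CPM in the replicate 1 libraries, with only control 3 (42.0 CPM) of the others in that range. The 4 adipocyte markers moved with the replicate number too. Their summed level was 60.3, 32.6 and 13.9 CPM in the replicate 1 libraries of control, H2O2/saline and H2O2/SB431542, and 0.206 to 0.914 CPM in the other 6 libraries, where Adipoq, the adipocyte hormone adiponectin, was at 0 to 0.634 CPM. Their part in the levels of Nid1, Col18a1 and Col4a5 was not tested.

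Over all 19313 other tested genes, the one most like Col4a1 by the correlation of log2 CPM over the 9 libraries was Col4a2 (r = 0.980). Nid2 ranked 5 (r = 0.969) and Col15a1 ranked 16 (r = 0.956). The 5 genes outside the set that were most like it were Gm26569 (r = 0.975), Msl1 (0.974), Scnn1a (0.970), Qsox1 (0.969) and Adamts2 (0.968). Qsox1 encodes a sulfhydryl oxidase that forms disulfide bonds and Adamts2 a protease that trims procollagens. Those most like Col15a1 were Col6a3 (0.972), Gm26569 (0.972), Fbn1 (0.962), Acap3 (0.961) and AC131739.1 (0.959), among them a chain of collagen VI and fibrillin-1, both parts of the interstitial matrix. These correlations describe 9 libraries that share groups and replicate numbers. Gm26569 had at most 0.743 CPM, so its likeness rests on few counts.

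The other parts of the basement membrane and its machinery were read in lists chosen by function, and in edgeR and in limma-voom 0 genes of the 5 lists passed the test in any of the 3 comparisons. In H2O2/saline against control, DESeq2 called 7.3% of all genes and edgeR with the replicate block 4.79%, and each called 0 of the 10 members. At such shares, 0 of 10 does not set the members apart from other genes. The calls of these 2 fits among the listed genes are given with each list. In the H2O2/SB431542 comparisons these fits called only Mmp7 of the listed genes, higher than in control, with the block. Of the laminin chains, which form the other network, 9 of 11 had positive log2 fold changes in H2O2/saline against control (48.6% of all genes). Their median was 0.36, and 4 were higher at an unadjusted p under 0.05 in edgeR (9.88% of all genes). Of these, Lama3 had a log2 difference of 0.94 (12.4 to 16.7 CPM in control and 11.0 to 40.3 in H2O2/saline, SE 0.40, adjusted p = 0.248 in edgeR) and Lamc3 one of 0.93 (7.19 to 18.2 CPM in control and 15.2 to 29.5 in H2O2/saline, SE 0.35, adjusted p = 0.190). Lama3 encodes a laminin chain of epithelial anchorage, and its H2O2/saline 1 library lay below all 3 controls while the other H2O2/saline libraries lay above them. The groups of Lamc3 overlapped through control 1. DESeq2 called 1 of the 11 laminin chains and edgeR with the block 2 of the 11, all of them higher. Lama3 and Lamc3 were not among those called.

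Among 16 other basement membrane proteins, 10 had positive log2 fold changes (48.6% of all genes) and the median was 0.07, so this list did not lean one way as a whole. Its largest differences were 2.04 for Npnt, -1.39 for Smoc1 and 1.23 for Frem1. Npnt encodes nephronectin, a ligand of integrin α8β1, and was at 3.86 to 5.25 CPM in control. In H2O2/saline it was at 4.54, 22.8 and 26.8 CPM, so that replicate 1 alone stayed within the control range (adjusted p = 0.0826 in edgeR). Smoc1, a matricellular calcium-binding protein, was at 26.0 to 41.6 CPM in control and at 28.9, 3.78 and 6.31 CPM in H2O2/saline, with the replicate 1 library again at the control level. Npnt and Sparc, a collagen-binding protein, were called higher by DESeq2 and in edgeR with the block, and the block also called Smoc1 lower.

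Enzymes and chaperones that fold, modify, crosslink or export collagen IV had positive log2 fold changes in 13 of 15 tested genes after H2O2 (48.6% of all genes). Their median was 0.55, and 6 were higher at an unadjusted p under 0.05 in edgeR (9.88% of all genes). P4ha2, a catalytic subunit of the prolyl hydroxylase that stabilises the collagen helix, was at 11.8, 7.71 and 6.65 CPM in control. In H2O2/saline it was at 18.1, 25.6 and 25.0 CPM, above every control, and the log2 difference was 1.39 (SE 0.33; adjusted p = 0.0707 in edgeR). Loxl2, which crosslinks collagen IV, was at 7.35, 30.9 and 14.5 CPM in control and 18.3, 37.6 and 40.1 CPM in H2O2/saline (0.86, SE 0.44). P4ha2, the lysyl hydroxylase Plod1 and the galactosyltransferase Colgalt1 were called higher by DESeq2 (3 of 15, against 7.3% of all genes called). With the block so was the prolyl 3-hydroxylase P3h1 (4 of 15, against 4.79%). Colgalt2, another collagen galactosyltransferase, had at most 0.569 CPM in any library (1.73, SE 1.72). In H2O2/SB431542 against H2O2/saline, 2 of the 15 had positive log2 fold changes (51.7% of all genes) and the median was -0.27. This comparison and that of H2O2/saline with control share the H2O2/saline libraries. In H2O2/SB431542 against control, 13 of 15 were positive (50.2% of all genes) and the median was 0.26.

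Receptors split by chain, with 6 of 11 positive (48.6% of all genes) and a median of 0.14. Itga6, part of the laminin receptor of hemidesmosomes, was at 22.9 to 34.6 CPM in control and 28.6, 109 and 94.9 CPM in H2O2/saline (1.51, SE 0.44; adjusted p = 0.113 in edgeR). Itga2 had a log2 difference of 1.35 (SE 0.45). Itga1, the integrin chain that binds collagen IV and is made by smooth muscle and other stromal cells, was at 32.2, 112 and 79.7 CPM in control and 23.5, 37.4 and 34.8 CPM in H2O2/saline (-1.22, SE 0.36; adjusted p = 0.116 in edgeR). DESeq2 called Itga1 lower and Itga2, Itga6 and Itgb4 higher (4 of 11, against 7.3% of all genes called). With the block edgeR called Itga6 and Itgb4, the partners in hemidesmosomes, higher (2 of 11, against 4.79%). The lower Itga1 level stood beside a lower mean of Myh11, the smooth muscle myosin, at 1831 to 5333 CPM in control and 1584 to 2035 CPM in H2O2/saline. These ranges overlapped through control 1. Myh11 had the largest log2 difference (-1.05) of 6 smooth muscle markers, of which 0 were positive. Their median was -0.36, and Actg2 had the smallest difference, -0.14. The part of muscle content in the Itga1 level was not tested.

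Proteases that cut collagen IV or release endostatin were read in a list that also holds the plasminogen activators Plat and Plau. In it, 10 of 11 tested genes had positive log2 fold changes (48.6% of all genes), with the largest median of the lists, 1.11. Of the 11, 6 were higher at an unadjusted p under 0.05 in edgeR (9.88% of all genes). Plat, tissue plasminogen activator, was at 11.0, 23.2 and 18.3 CPM in control and 22.6, 118 and 89.2 CPM in H2O2/saline (2.13, SE 0.50; adjusted p = 0.0679 in edgeR). Ctss, the cysteine protease cathepsin S, was at 4.02 to 7.68 CPM in control and 6.70, 22.1 and 32.1 CPM in H2O2/saline (1.77, SE 0.50). Mmp7, matrilysin, was at 0 CPM in all 3 controls and in both replicate 1 libraries of the H2O2 groups, and was at 2.60 to 6.17 CPM in the other 4. DESeq2 called 5 of the 11 higher (Ctsb, Ctss, Mmp2, Mmp14 and Plat), against 7.3% of all genes called. With the block edgeR called these and Mmp7 higher, against 4.79% of all genes called. In H2O2/SB431542 against H2O2/saline the median of this list was -0.39, with 3 of 11 positive (51.7% of all genes). Mmp9 and Ctsb were lower at an unadjusted p under 0.05 (2 of 11, against 4.98% of all genes, each adjusted p = 0.528 in edgeR). Plat had a log2 difference of -1.01 (SE 0.48, adjusted p = 0.572 in edgeR). The injury comparison and this one share the H2O2/saline libraries. In H2O2/SB431542 against control the median was 0.71, with 9 of 11 positive (50.2% of all genes). There 6 were higher at an unadjusted p under 0.05 in edgeR (4.36% of all genes) and 1 was lower (3.24%).

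Markers of cells that make these proteins were summed in each library. In H2O2/saline against control, edgeR called 0 of the endothelial, fibroblast, smooth muscle, pericyte, urothelial and macrophage markers. The summed level of 8 endothelial markers was 154 to 221 CPM in control, 235 to 407 in H2O2/saline and 236 to 271 in H2O2/SB431542, with all 8 detected in every library. That of 7 fibroblast markers was 2598 to 4852, 5453 to 5889 and 4271 to 6664 CPM, and that of 6 smooth muscle markers 18762 to 42130, 20758 to 27421 and 21438 to 22569 CPM. The endothelial and fibroblast sums of H2O2/saline lay above those of control, while the smooth muscle sums overlapped. Among single genes, 9.7% had all 3 H2O2/saline libraries above control. The sums of 8 urothelial markers overlapped as well, at 18651 to 28721 CPM in control and 18060 to 25377 CPM in H2O2/saline. Of these, 4 of 8 had positive log2 fold changes, with values from 1.37 for Krt5 to -0.94 for Upk3a. The genes within each list did not move alike. Of the 8 endothelial markers 6 had positive log2 fold changes, and Kdr and Tek had values of -0.06 and -0.05. Of the fibroblast markers the collagens Col1a1, Col1a2 and Col3a1, which made up most of the sum, had log2 differences of 0.73, 0.74 and 1.07, against -0.52 for Dcn, 0.03 for Lum and -0.11 for Pi16. The sum of 6 pericyte markers was 387 to 444 CPM in control and 287 to 401 CPM in H2O2/saline. These markers split in direction, with 3 of 6 positive and a median log2 fold change of -0.11. Rgs5 had a log2 difference of -1.88 (adjusted p = 0.0600 in edgeR), against 0.60 for Pdgfrb, 0.43 for Kcnj8 and 0.12 for Notch3. The part of these cell types in the levels of the members was not tested. Within control, control 2, which had the highest level of every member but Col18a1, also had the highest endothelial, fibroblast and smooth muscle sums (221, 4852 and 42130 CPM). Control 1, with the highest Col18a1, had sums of 205, 3343 and 18762 CPM. Control 3, with the lowest Col4a1, had 154, 2598 and 36210 CPM. Whether any of these sums bears on the members was not tested. Macrophage markers, 6 in all, summed to 225 to 277 CPM in control, 371 to 682 in H2O2/saline and 276 to 514 in H2O2/SB431542. In H2O2/saline against control 5 of the 6 had positive log2 fold changes, and Mrc1 had a value of -0.25. Ctss did not pass in edgeR in that comparison (adjusted p = 0.105). The part of macrophages in its level was not tested.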

How the data were processed

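Poly-A RNA of bladder tissue was sequenced as paired reads in 9 libraries. The authors processed the reads in strand NGS on GRCm39 and deposited a table with expected counts per gene (estimated, 32.0% of nonzero values whole) and log2 values centred per gene (not used). No source used here names the aligner, counting rule or annotation. Expected counts were rounded and tested with edgeR 4.0.16 in R 4.3.3 (TMM factors 0.910 to 1.07, filterByExpr, quasi-likelihood test over 19314 genes, all 9 libraries in 1 fit, adjusted p under 0.05). limma 3.58.1 and DESeq2 1.42.0 were alternatives, with other scalings, filters, a replicate block and left-out libraries. Levels per kilobase used merged exons of GENCODE M21 (GRCm38), so they approximate the lengths counted. Log2 CPM used a prior count of 2. The code was tested on simulated data. The 10 members, the lists and the rule for named genes (all members, the 3 largest absolute log2 fold changes of each list, the 5 genes most like Col4a1 and Col15a1) were chosen with earlier results of these data known. Mia2 was not matched, Elane was filtered, and 1 gene that the rule names is not reported here. Cell type markers were summed as CPM.

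The labels number replicates 1 to 3 in each group without saying that a number marks a pair. Deviations from group means correlated between same-numbered libraries at r = 0.312, 0.119 and 0.112 for H2O2/saline with control and 0.514, 0.201 and 0.129 for H2O2/SB431542 with H2O2/saline, over 0.1 in every pair, but at 0.321, 0.0399 and 0.0770 for H2O2/SB431542 with control. Deviations from a group mean cancel out for each gene. Likeness of the replicate 1 libraries alone would thus push the remaining libraries of each group the opposite way and make them correlate. The values for the higher numbers therefore cannot show that each number marks a pair. The pairing used as a block rests on the data, mainly on replicate 1, and not on the design. SDs are over 3 libraries a group and measure the spread between libraries. The 95% intervals are those of the fitted log2 difference. They use the SE of the edgeR fit of all 9 libraries, with 11.9 degrees of freedom.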

Additional observations from a re-analysis of the deposited data

How the results depend on the processing

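No alternative other than the replicates 2 and 3 only fit, chosen after seeing the data, changed the call of a member; it called 1, Col18a1 in H2O2/saline against control. The number of all genes called moved strongly. For H2O2/saline against control, where edgeR called 10, it was 1409 with DESeq2, 1579 with no filter, 323 with a minimum of 10 counts, 4 from these groups alone, 2521 from replicates 2 and 3, and 0 to 1822 with a library left out (1822 without H2O2/saline 1). For H2O2/SB431542 against H2O2/saline, where it called 0, it was 39 with DESeq2, 274 with no filter, 1 from the pair of groups alone, 234 from replicates 2 and 3, and 0 to 197 with a library left out. Against control, H2O2/SB431542 gave 3, then 197 with DESeq2, 5 with upper-quartile scaling, 439 with no filter, 6 with the minimum of 10 counts, 23 from these groups alone, 449 from replicates 2 and 3, and 0 to 83 with a library left out. The replicate block gave 925, 0 and 35 calls with 0 members, and with it Col4a2 differed by 0.021 between the H2O2 groups. For H2O2/SB431542 with control, only replicate 1 correlated best with its own number (r = 0.321). The cause of these shifts was not tested.

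Signs turned for small differences. Between the H2O2 groups, the log2 difference became 0.38 for Col4a3 in limma-voom, 0.0086 for Col4a2 with upper-quartile scaling, 0.015 for Col4a2 and 0.012 for Col18a1 with the minimum of 10 counts, and -0.20 for Col4a1 and -0.13 for Nid2 in replicates 2 and 3; Col4a3 was 0.52 in limma-voom against control. With 1 library left out, ranges that crossed 0 were, for H2O2/saline against control, -0.61 to 1.09 for Col4a3, -0.44 to 0.30 for Col4a4 and -0.0017 to 0.20 for Col4a6. Between the H2O2 groups they were -0.15 to 0.22 for Col4a1, -0.16 to 0.11 for Col4a2, -1.07 to 0.29 for Col4a3, -0.10 to 0.24 for Col4a4, -0.084 to 0.50 for Col4a5, -0.24 to 0.090 for Col18a1, -0.46 to 0.11 for Nid1 and -0.15 to 0.22 for Nid2. For H2O2/SB431542 against control they were -0.026 to 0.78 for Nid1, -0.88 to 0.56 for Col4a3 and -0.35 to 0.39 for Col4a4. The median of the members ran from 0.27 to 0.96, from -0.15 to 0.11 and from 0.26 to 0.87 in the 3 comparisons. No scaling moved the median of all genes by over 0.1. With 3 libraries a group and as few as 1.06 counts of Col4a3, depth limits that gene, and for the others the limit is the spread between libraries.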
